A study of Rangifer tarandus with 4 samples.

Results

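Very long genes, taken here as protein-coding genes whose annotated span from first to last base is at least 500 kb (500000 bases), were drawn from the cattle (Bos taurus) gene annotation deposited with a single-cell study of reindeer blood. The rule used the gene line alone, end minus start plus 1, and found 154 genes among 21861 protein-coding genes, or 0.704%. A symbol was given for 148 of them, and 6 carried an identifier alone. The comparison set was the 16660 other named protein-coding genes, and, because many features change with length, the 2249 of these that span 100 to 500 kb. No gene of another biotype reached the threshold. All positions are on the cattle assembly ARS-UCD1.2 and count from 1.

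The study profiled mononuclear blood cells from reindeer, Rangifer tarandus, 3 days after wounding, with 2 libraries from saphenous vein blood (back) and 2 from blood of the distal antler velvet (antler), each loaded with about 12000 cells. The time after the wound, the species and the 3′ single-cell chemistry were common to both sites, and neither the age nor the identity of the animals is given in the labels used here. No cell counts were analysed here, and no value below is an expression level or a difference between sites. The sources used here do not state how a cattle annotation served for reads of another species.

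A gene is copied into RNA from end to end, and the introns are then cut out, so a gene's span is set mostly by its introns and not by the size of its protein. Mammalian genes with very large introns are known to include many that encode adhesion proteins, ion channels and receptors of neurons, and several lie over common fragile sites, chromosome regions that break when replication is slowed. Libraries made from the 3′ end of transcripts are read mostly in the last exon and its untranslated region (UTR), the part of a messenger RNA after the stop codon. The values come from a single annotation without replicates, and gene models are not replicates of a condition, so no test was run and the differences are descriptions.

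The 154 genes had a median span of 631 kb (quartiles 557 and 793 kb), and 13 of them reached 1 Mb. They make up 11.3% of all bases covered by protein-coding genes, 107 of 947 Mb, but hold 1.74% of the coding bases. The longest was CTNNA3 (ENSBTAG00000045699), which encodes an alpha-catenin that ties cadherins to actin. It spans 1838 kb on the minus strand of chromosome 28, from 22282909 to 24121400, with 17 exons and 2685 coding bases. PRKG1 (ENSBTAG00000018404), a cGMP-dependent protein kinase, followed with 1414 kb on chromosome 26, from 6899619 to 8313722. KCNIP4 (ENSBTAG00000047743), a partner of voltage-gated potassium channels, spans 1326 kb on chromosome 6, from 40250033 to 41576485. CSMD3 (ENSBTAG00000038281), a large membrane protein with CUB and sushi domains, spans 1304 kb on chromosome 14, from 50969629 to 52273953.

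The next 4 genes encode membrane or cadherin-linked proteins. NRG3 (ENSBTAG00000009587), a ligand of the receptor ERBB4, spans 1236 kb on chromosome 28, from 36896430 to 38132186. LRP1B (ENSBTAG00000024632), an endocytic receptor, spans 1207 kb on chromosome 2, from 55584017 to 56790873. ASIC2 (ENSBTAG00000025200), an acid-sensing sodium channel, spans 1205 kb on chromosome 19, from 16022746 to 17228096. In these genes a large membrane protein such as LRP1B and a small channel subunit such as ASIC2 reach nearly the same span. CTNNA2 (ENSBTAG00000031669), the alpha-catenin of neurons, spans 1186 kb on chromosome 11, from 54799681 to 55985486.

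Of the remaining genes among the 12 longest, 3 are given here. ASTN2 (ENSBTAG00000025667), an astrotactin of migrating neurons, spans 1051 kb on chromosome 8, from 105642638 to 106693624. NEGR1 (ENSBTAG00000055278), an adhesion protein of the IgLON family, spans 1033 kb on chromosome 3, from 72812247 to 73845504. GPC5 (ENSBTAG00000008708), a heparan sulfate proteoglycan, also spans 1033 kb, on chromosome 12 from 65755349 to 66788079. Exon number among these 12 genes ran from 7 in NEGR1 to 90 in LRP1B, so genes of like span differ widely in how many exons they spread over it.

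**Figure D1:**
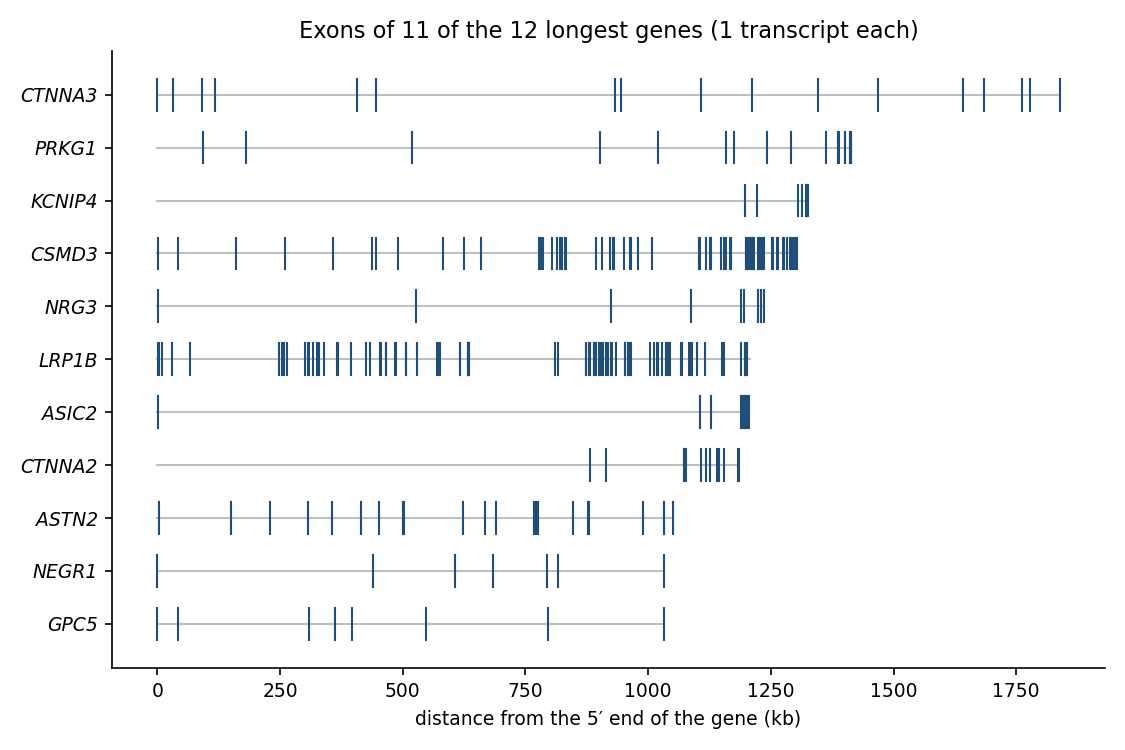
Exon positions (vertical ticks) along 11 of the 12 longest genes (grey lines), as distance from the 5′ end in kb, for the transcript with the longest coding sequence of each gene. CSMD3 and LRP1B carry 68 and 90 exons along most of their span, while the 8 exons of KCNIP4 lie in the last 130 kb of its 1326 kb, and a single intron of ASIC2 covers 1106 kb.

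At the threshold itself the values form no gap. The 5 genes just inside were TAFA1 (506 kb), FGGY (504 kb), GUCY1A2 (501 kb), KCNH8 (501 kb) and PPFIA2 (501 kb). Just outside lay AKAP6 (498 kb), SBF2 (498 kb), FAF1 (498 kb), TLN2 (495 kb) and ADAMTSL1 (493 kb). Coding share, the percentage of the span that is coding in any transcript, was 0.0789% in TAFA1, a secreted chemokine-like protein of 4 exons, and 1.54% in TLN2, a talin of 58 exons.

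Exon number was higher in the very long genes than in the others by the medians. In the transcript with the longest coding sequence of each gene (called the representative transcript), the median was 20.5 exons (quartiles 11 and 29) against 8 in the other named genes (quartiles 4 and 14) and 16 in those of 100 to 500 kb (quartiles 10 and 24). The quartile ranges of the very long genes and of the genes of 100 to 500 kb overlap. HMCN1, an extracellular matrix protein built of immunoglobulin domains, had the most exons with 107. RYR2, the calcium release channel of heart muscle, had 102. LRP1B and ADGRV1, an adhesion receptor of hair cells, had 90 each. At the other end HS6ST3, a heparan sulfate sulfotransferase, had 2 exons, and FAM155A and GPC6 had 3. In all, 26 very long genes had fewer than 10 exons and 16 had 50 or more, so a long span was annotated over few exons as well as over many. The matching counts in shorter genes are not given here, so this spread is not shown to be particular to very long genes. Over the classes of named genes by span, the median rose from 3 exons under 5 kb to 21 at 500 to 1000 kb, and it was 13 in the 13 genes of 1 Mb or more.

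Coding sequence was longer in the very long genes, but far less so than the span. All transcripts merged, their median was 2901 coding bases, against 1370 in the other named genes and 2471 in those of 100 to 500 kb. The medians of span were 631, 20.7 and 164 kb in the same 3 sets. The coding share was therefore 0.426% in the median very long gene, 6.79% in the other named genes and 1.41% at 100 to 500 kb. It was under 1% in 129 of the 154, and in 5.44% of the other named genes (907 genes). In the named genes of 200 to 500 kb the median share was 0.881%, so a share under 1% is not particular to very long genes. FHIT, a hydrolase of diadenosine polyphosphates, had the lowest share at 0.0569%, with 447 coding bases in 786 kb. IMMP2L, a subunit of a mitochondrial peptidase, had 0.0581%, and KCNIP4 had 0.0696%. The highest shares belonged to genes of very large proteins, ADGRV1 with 3.76%, HMCN1 with 3.14% and RYR2 with 2.64%. Even these lay below the median of the other named genes. The representative coding sequence was under 1000 bases in 12 very long genes and at least 10000 bases in 12.

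**Figure D2:**
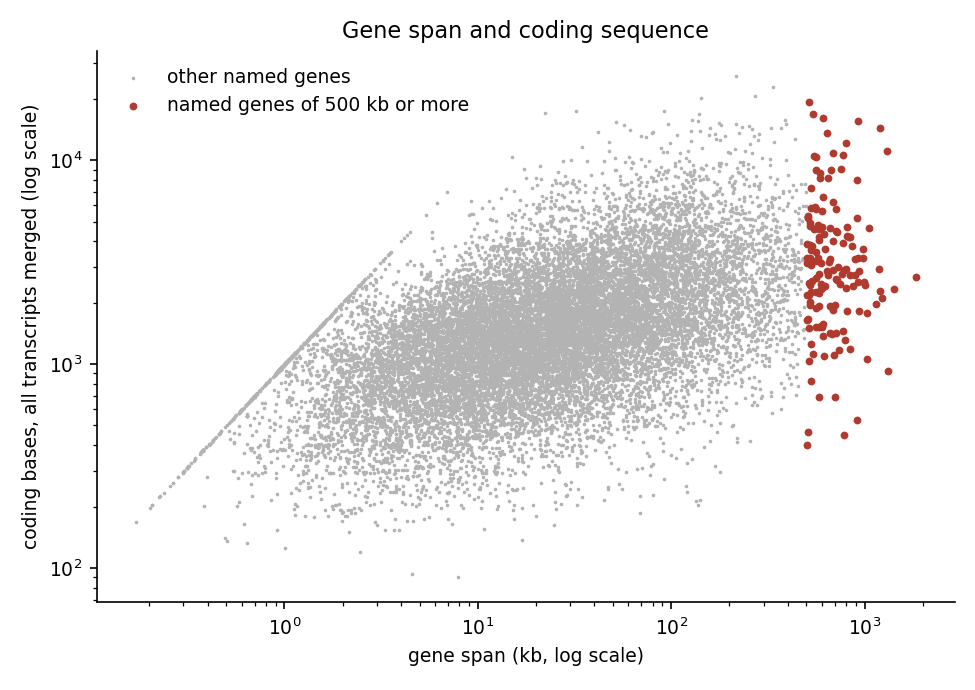
Coding bases (all transcripts merged) against gene span in kb for each named protein-coding gene, both on log scales, with the 148 named genes of 500 kb or more in red and the 16660 other named genes in grey. The red points spread from 399 to 19324 coding bases, inside the range of the grey points.

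The span consisted mostly of introns. The largest intron of the median very long gene measured 164 kb (quartiles 122 and 204 kb), against 7.13 kb in the other named genes with an intron and 58.0 kb in those of 100 to 500 kb. An intron of 100 kb or more was present in 132 of the 154 genes (85.7%), against 3.04% of the other named genes and 22.5% of those of 100 to 500 kb; genes shorter than 100 kb cannot hold one, so this contrast follows in part from the rule. The very long genes held 273 of the 872 introns of this size in all protein-coding genes, or 31.3%. In the representative transcripts ASIC2 had the largest, its first intron of 1106 kb. HS6ST3 followed with 711 kb and FAM155A with 579 kb. The smallest of the largest introns were 50.4 kb in PCSK5, a proprotein convertase with 36 exons, and 61.3 kb in RORA, a nuclear receptor. A gene without a symbol came next with 66.7 kb.

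A single intron took a smaller part of the span than in shorter genes by the medians. The largest intron took 24.3% of the span in the median very long gene (quartiles 18.9 and 33.8), against 33.1% in the other named genes with introns (quartiles 21.7 and 48.8) and 33.3% at 100 to 500 kb (quartiles 21.5 and 47.9). The median share stayed between 31.99 and 34.4% in every class of named genes up to 500 kb, was 24.6% at 500 to 1000 kb and 20.2% from 1 Mb. Because the quartile ranges overlap, many very long genes resemble shorter ones in this. The largest intron took more than 50% of the span in 16 of the 154 (10.4%), against 23.7% of the other named genes with introns and 22.1% of those of 100 to 500 kb. It took 99.8% in HS6ST3, 97.2% in KCND2, a pore subunit of transient potassium channels, and 95.1% in FAM155A. The lowest shares were 6.26% in KCNIP4, 7.57% in RORA and 9.02% in CSMD3. For KCNIP4 and RORA this reflects the transcript read, since their representative transcripts cover 130 of 1326 kb and 102 of 810 kb. With all transcripts merged, the largest stretch without an exon was 1080 kb in KCNIP4 and 608 kb in RORA. In ASIC2 it was 909 kb, so by this measure KCNIP4 and not ASIC2 had the longest.

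Median intron length was highest at the 5′ end of the very long genes. Among the 128 very long genes with 9 introns or more, the median intron fell from 67.5 kb for the first and 58.7 kb for the second to 29.1 kb for the third and 11.6 kb for the eighth, and the last intron had a median of 3.85 kb. In the 1707 genes of 100 to 500 kb with as many introns, the first measured 23.4 kb, the second 9.47 kb and the last 2.43 kb. In the very long genes the second intron was thus nearly as long as the first by the medians, while at 100 to 500 kb it was less than 50% of it. The first intron was the largest in 37 of the 128 (28.9%), against 37.4% of the other named genes and 41.6% of those of 100 to 500 kb with as many introns. The largest was among the first 3 in 60.2%, 59.0% and 66.7% of these sets. It lay beyond the 10th intron in 24 of the 128 (18.8%), against 14.3% and 15.4%. In 5 of the 154 genes the largest intron lay before the first coding base.

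**Figure D3:**
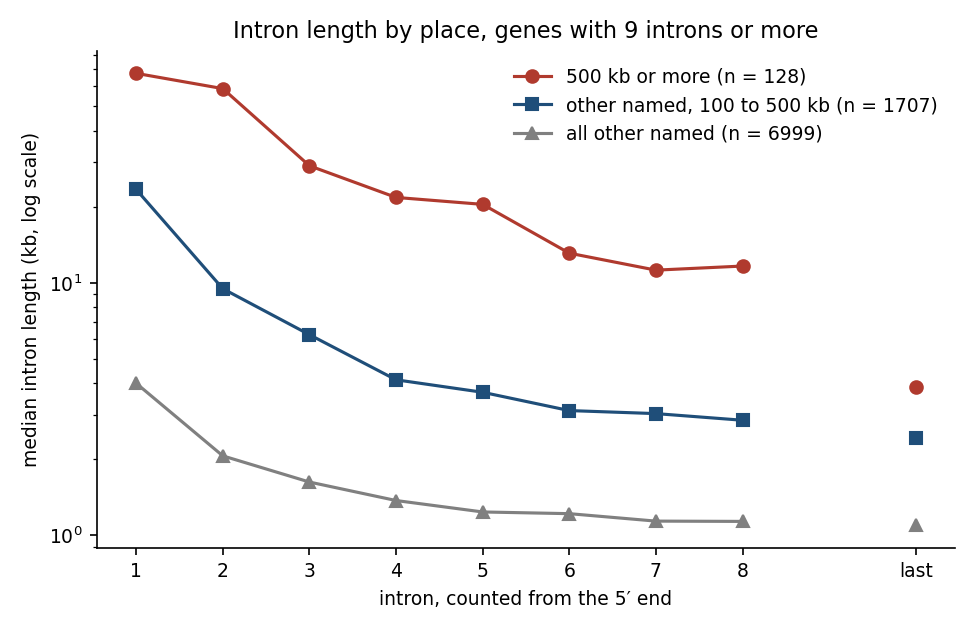
Median intron length in kb (log scale) by the intron's place from the 5′ end, and for the last intron, in genes with 9 introns or more. Very long genes (red, 128 genes) start at 67.5 kb and end at 3.85 kb, above the genes of 100 to 500 kb (blue) and all other named genes (grey) at each place.

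The internal coding exons themselves were of usual size. Their median length per gene was 132 bases in the very long genes (quartiles 111 and 156), 125 in the other named genes and 126 at 100 to 500 kb. A length divisible by 3, which lets an exon be skipped without a shift of the reading frame, was found for 41.7% of 3398 internal coding exons in the very long genes and for 40.3% of 137431 in the others. Exons of 30 bases or fewer made up 3.03% against 0.916%. Without 2 genes that carry no symbol and whose models consist mostly of such exons, the share in the very long genes was 0.933%.

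More than 1 transcript was annotated for 112 of the 154 genes, and a single transcript for 42 (27.3%), against 54.1% of the other named genes and 26.8% of those of 100 to 500 kb. Of the 112 genes, 90 had more than 1 transcript start. In 17 genes the representative transcript itself spans less than 500 kb. RORA was the most extreme, with 102 kb of 810 kb, followed by KCNIP4 with 130 kb, the adhesion receptor ADGRL2 with 198 of 711 kb, PHACTR1 with 243 of 518 kb and CTNNA2 with 305 of 1186 kb. In each of these 5 a single other transcript passed 500 kb, and the representative one began 698 kb (RORA), 1197 kb (KCNIP4), 513 kb (ADGRL2), 275 kb (PHACTR1) and 881 kb (CTNNA2) downstream of the gene's first base. LHFPL3 was the single gene of the 154 in which no transcript reached 500 kb; its 2 transcripts together cover 579 kb and the longer one 440 kb. ALK, a receptor tyrosine kinase, had 10 transcripts with 10 starts, and 1 of them exceeded 500 kb. By contrast, all transcripts passed the threshold in 93 genes. These include the 42 genes with a single transcript, which passes by the rule. Among those with more than 1 were LRP1B, PCDH15, LRBA and RYR2, with 10 transcripts each. PHACTR1, LHFPL3, ALK and PCDH15 were named after their values were seen.

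Among families with at least 4 matched genes, the share of very long genes was highest in teneurins, CUB and sushi proteins and catenins. Lists of symbols were set up for 35 families or classes of related proteins, and 60 of the 148 named very long genes fell into at least 1 of them; the other 88 fell into none. Over all named genes 0.881% were very long. The lists were drawn up with known long genes of mammals in view, so a high share in a list is not independent evidence, and at least 1 very long gene was found in 30 of the 35. Lists without any were the GABA-A receptor subunits (0 of 18), the phosphodiesterases (0 of 21) and the ADAM and ADAMTS genes (0 of 42). The last of these includes ADAMTS-like genes such as ADAMTSL1. The intracellular fibroblast growth factors (0 of 4) and the interleukin 1 receptor family (0 of 10) had none either. FGF13 is counted there with models of 238 and 75.4 kb, and whether the models in these lists are complete was not examined.

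Among adhesion proteins, 3 of 4 teneurins, transmembrane proteins that join neurons across the synapse, were very long. TENM1 spans 646 kb with 31 exons, TENM4 589 kb with 31 exons and TENM2 560 kb with 28 exons, and the fourth, TENM3, spans 289 kb with 27 exons. All 4 have a 3′ UTR. The 3 CUB and sushi genes CSMD3 (1304 kb, 68 exons), CSMD1 (771 kb, 65 exons) and CSMD2 (685 kb, 70 exons) are all very long and all lack one. A second gene model with the symbol CSMD3 spans 1.21 kb in 1 exon and makes the list 3 of 4; this short model does carry a 3′ UTR, of 751 bases. Of 24 cadherins 3 were very long, CDH13 (804 kb), a cadherin anchored by a lipid in place of a transmembrane part, CDH18 (604 kb) and CDH12 (518 kb). Catenins act at the inner end of cadherins. Of the catenins, CTNNA3, CTNNA2 and CTNND2 (689 kb) were very long, while CTNNA1 spans 334 kb, CTNNB1 47.0 kb and CTNND1 45.4 kb. So within this list the beta-catenin gene is shorter than the longest alpha-catenin gene by a wide margin. Their coding lengths are nearly equal, 2568 against 2685 bases.

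Smaller adhesion and guidance families gave 1 or 2 each. Of 6 contactins, CNTN5 and CNTN4 were very long, of 5 IgLON genes NEGR1 and OPCML, and of 6 glypicans GPC5 and GPC6. The netrin receptors DCC and UNC5D were the very long genes among 10 axon guidance receptors. NRXN3 was the only very long model among 5 neurexin models, and this symbol marks 2 models. They span 605 and 395 kb with 8 and 12 exons. Whether they are parts of the same gene was not examined.

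Receptors and channels made up the next group. Adhesion G protein-coupled receptors had 4 very long genes of 27, ADGRL2 (711 kb), ADGRL3 (576 kb), ADGRB3 (544 kb) and ADGRV1 (513 kb); the first and second are latrophilins, which bind teneurins. The list of receptor protein tyrosine phosphatases had 4 of 21, PTPRT (829 kb), PTPRM (666 kb), PTPRK (613 kb) and PTPRN2 (525 kb). The list was matched by symbol, so its 21 genes include PTPRCAP (2.90 kb), a protein associated with PTPRC and not itself a phosphatase. Phosphatase activity of the listed genes was not examined. PTPRT, PTPRM and PTPRK belong to the same subclass, whose extracellular parts bind like to like, and have 32, 34 and 31 exons. Ionotropic glutamate receptors had 4 of 18, among them the delta subunit GRID1 (683 kb), the kainate subunit GRIK2 (729 kb) and the AMPA subunit GRIA4 (608 kb). The metabotropic receptors GRM7 (893 kb) and GRM8 (838 kb) were 2 of 8, each with 10 exons.

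Among potassium channel genes 4 of 92 were very long: KCNIP4, an interacting protein and not a pore subunit, the calcium-activated channel KCNMA1 (771 kb), KCND2 (563 kb) and KCNH8 (501 kb). DPP6 (784 kb), which assembles with KCND2 and the KCNIP proteins in one channel complex, was very long too. Of 26 voltage-gated calcium channel genes 3 were, the auxiliary subunits CACNA2D3 (894 kb) and CACNA2D1 (520 kb), with 38 and 39 exons, and the pore subunit CACNA1E (526 kb), with 49. RYR2 (607 kb, 102 exons) and ITPR2 (589 kb, 57 exons), which release calcium from internal stores, were 2 of 5. Among transcription factors with long genes, RORA, SOX6 (708 kb) and SOX5 (598 kb) were 3 of 43, and all 3 have a representative transcript under 500 kb.

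Common fragile site genes gave the highest count of any list, 11 of 16. Among them were CTNNA3, LRP1B, NAALADL2 (1001 kb), DLG2 (938 kb), WWOX (930 kb), IMMP2L (913 kb), RORA (810 kb), FHIT (786 kb) and NBEA (672 kb). The 5 others span 459 kb (DAB1), 371 kb (PARD3B), 322 kb (LSAMP), 229 kb (MACROD2) and 54.8 kb (IL1RAPL1). These 11 are 7.43% of the named very long genes. Their coding sequences ran from 447 bases in FHIT to 14380 bases in LRP1B. The list of very large proteins gave 10 of 54, among them CSMD3, LRP1B, VPS13B, CSMD1, CSMD2, FAT3, RYR2, HMCN1 and ADGRV1, so most genes on it spread their long coding sequence over less than 500 kb.

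Of 65 genes listed as markers of, or known to act in, blood cells, 8 were very long. This hand-written list is rich in long genes, with a median span of 210 kb against 20.7 kb in the other named genes. The count of 8 is therefore not independent evidence that genes of blood cells are often very long. Whether the listed genes are particular to blood cells was not examined. IMMP2L (913 kb) had 5 exons and no 3′ UTR. PLCB1 (861 kb), a phospholipase C that acts below G protein-coupled receptors, had 32 exons and a 3′ UTR of 1100 bases. FHIT (786 kb) had none. LRBA (755 kb), a BEACH domain protein that keeps the checkpoint receptor CTLA4 from being degraded, had 56 exons, 10 transcripts and no 3′ UTR in any of them. CDK14 (679 kb), a cyclin-dependent kinase, had a 3′ UTR of 3406 bases, which AFF2 and CACNA2D1 alone exceeded among the 154. ARHGAP15 (665 kb), a GTPase-activating protein for Rac, had none, nor did AFF3 (624 kb), a nuclear protein of lymphoid cells. ELMO1 (583 kb), which works with DOCK proteins to activate Rac, had one of 1200 bases. A 3′ UTR was thus annotated for 3 of these 8 genes and for 43 of the 57 shorter genes of the list. Whether these genes were detected in the reindeer cells was not examined.

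UTRs were annotated less often in the very long genes than in the other named genes. A 3′ UTR was present in 83 of 154 (53.9%), against 80.0% of the other named genes and 76.5% of those of 100 to 500 kb. Against all other protein-coding genes, with or without a symbol, the gap was smaller, since 65.6% of those had one. A 5′ UTR was present in 95 (61.7%), against 80.8% and 82.5%. Neither was annotated in 52 (33.8%), against 12.5% and 11.3%, so the models of these 52 genes begin and end with coding sequence. Over classes of span, the share of named genes with a 3′ UTR was 85.2% at 5 to 20 kb, 78.7% at 100 to 200 kb, 72.5% at 200 to 500 kb, 57.8% at 500 to 1000 kb and 30.8% from 1 Mb (4 of 13 genes). It was also low, 66.1%, in genes under 5 kb. The share moved with the number of transcripts: among very long genes with a single transcript 10 of 42 had a 3′ UTR (23.8%), and among those with more 73 of 112 (65.2%). In the genes of 100 to 500 kb the same shares were 69.7% and 79.0%, so the very long genes were lower in both classes. The part of transcript number in the difference was not tested.

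Where a 3′ UTR was annotated, its length was not unusual. The median was 737 bases in the 83 very long genes (quartiles 306 and 1206), 649 in the other named genes and 864 at 100 to 500 kb (quartiles 396 and 1474). AFF2, a relative of AFF3, had the longest with 4492 bases, followed by CACNA2D1 with 3957. Among the shortest were those of PPFIA2, a liprin of the presynaptic zone, with 33 bases and HDAC9, a histone deacetylase, with 48. Among the 12 longest genes KCNIP4 (1432 bases), CTNNA2 (325) and ASTN2 (618) had one, while CTNNA3, PRKG1, CSMD3, NRG3, LRP1B, ASIC2, NEGR1 and GPC5 had none. A stop codon was annotated in 151 of 154 (98.1%), against 99.8% of the other named genes and 99.7% of those of 100 to 500 kb. A start codon was annotated in 148 (96.1%), against 98.5% and 99.0%.

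**Figure D4:**
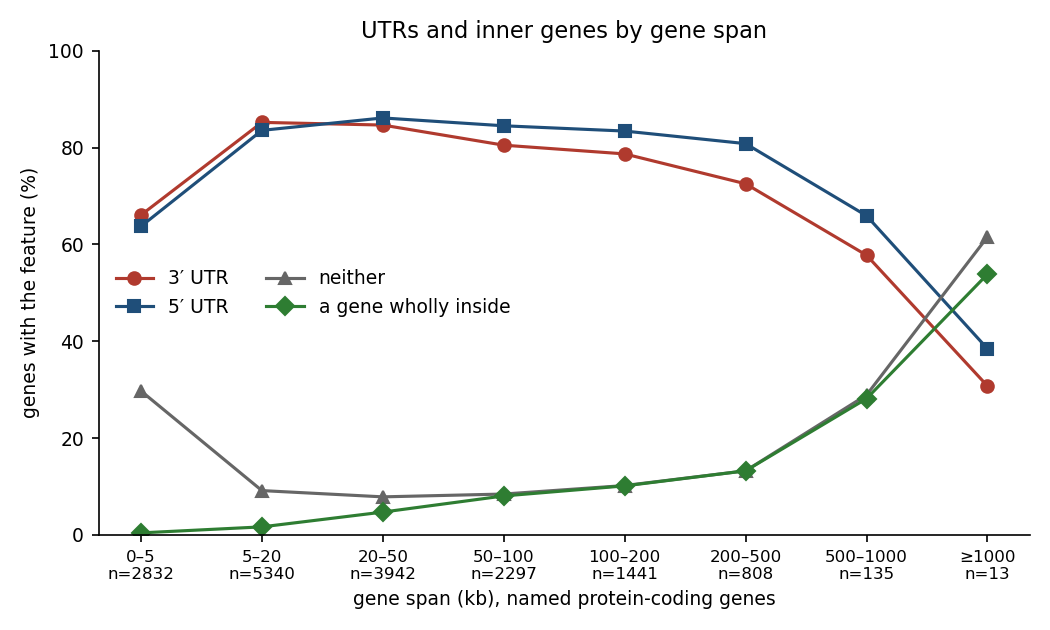
Share of named protein-coding genes in each class of span (kb, with the number of genes) that have a 3′ UTR, a 5′ UTR, neither, or another gene wholly inside. The shares with UTRs are between 72.5 and 86.1% from 5 to 500 kb and fall to 57.8% (3′) and 65.9% (5′) at 500 to 1000 kb; the last class holds 13 genes.

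The very long genes lay far from their neighbours. The gap to the nearer non-overlapping gene on either strand had a median of 84.3 kb (quartiles 30.7 and 209 kb), against 7.81 kb in the other named genes (quartiles 2.16 and 21.8 kb) and 22.4 kb at 100 to 500 kb (quartiles 8.14 and 59.5 kb). A neighbour lay within 10 kb of 21 of the 154 (13.6%) and of 56.3% of the other named genes. The nearest neighbour was more than 500 kb away from 15 (9.74%) and from 0.582% of the others. Neither count was made for the genes of 100 to 500 kb. Overlapping genes are left out of these gaps. At least 1 gene overlapped 50 of the 154 (32.5%), against 15.2% of the other named genes and 16.6% of those of 100 to 500 kb. The gap on the upstream side, before the 5′ end, was the larger by the medians, 249 kb against 133 kb downstream, and the same order held for the other named genes with 20.4 and 13.7 kb. KHDRBS2, an RNA-binding protein, stood farthest with 1599 kb; it is the first gene on chromosome 23 and has a neighbour on 1 side only. KLHL1, an actin-binding protein of neurons, stood 1584 and 1697 kb from its neighbours, and CDH12 1136 and 1584 kb. At the other extreme SUGCT, a mitochondrial CoA transferase, lay 325 bases from the next gene. ADK, adenosine kinase, lay 487 bases and TBC1D5, a regulator of membrane traffic, 532 bases from theirs.

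In 3 cases the next gene along the chromosome was itself very long, and 2 are given here. NAALADL2 and NLGN1, a neuroligin, lie 711 kb apart on the minus strand of chromosome 1. The glypican genes GPC5 and GPC6 lie 914 kb apart on the plus strand of chromosome 12. NLGN1 was named after its values were seen.

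At least 1 other gene lay wholly inside 48 of the 154 genes (31.2%), against 4.35% of the other named genes and 11.2% of those of 100 to 500 kb. Per Mb of span the count of inner genes was 0.786 in the very long genes, 1.05 in the other named genes and 0.735 at 100 to 500 kb, so by this count the very long genes held fewer inner genes per base than the other named genes. The 48 hosts held 85 inner genes, and 2 hosts with 17 and 16 account for 33 of them; without these 2, SORCS3 and a gene without a symbol, the count per Mb was 0.488. The order of the sequence inside these 2 hosts was not checked against another assembly, so their spans and inner genes hold for this annotation only. In the other 46 hosts 52 genes lay inside, 45 of them on the opposite strand, 26 with a single exon and 11 with a symbol. All 11 named ones lay on the opposite strand. These counts were not compared with the genes inside other hosts, so they are not shown to be particular to very long genes.

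Several of these named inner genes lie in related hosts; they and their hosts were singled out after their values were seen. LRRTM3 lies in intron 6 of CTNNA3, an intron of 487 kb, and LRRTM1 lies inside CTNNA2. Outside the very long genes, LRRTM2 lies inside CTNNA1. Each of the 3 alpha-catenin genes thus carries a gene of the LRRTM family, postsynaptic adhesion proteins with leucine-rich repeats, on its opposite strand. LRRTM1 and LRRTM2 span 2.64 and 4.05 kb with 2 exons each, and LRRTM3 spans 209 kb with 4 exons. Of the BEACH domain genes, NBEA carries MAB21L1 in intron 40 (83.0 kb) and LRBA carries MAB21L2 in intron 39 (90.9 kb), both on the strand opposite to the host, with a single exon and 1077 coding bases. Among the shorter BEACH domain genes, NBEAL1 (154 kb) and WDFY3 (215 kb) hold no inner gene and WDFY4 (248 kb) holds LRRC18, so the pairing with a MAB21L gene is seen in NBEA and LRBA but not in these 3. Other named inner genes were LRRN3 in intron 2 of IMMP2L (571 kb), TRIM32 in intron 16 of ASTN2, CSTF2T in intron 3 of PRKG1, LRTM1 in intron 27 of CACNA2D3, HMGB4 in intron 5 of CSMD2, INSYN2A in intron 27 of DOCK1 and C27H8orf48 in intron 1 of DLC1.

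Very long genes were found on all 30 chromosomes, the 29 autosomes and X, and on no unplaced scaffold, with 86 on the plus and 68 on the minus strand. Chromosome 4 held the most, 16, or 29.1 per 1000 named genes, against 8.81 over the whole annotation. Chromosomes 12 (24.4 per 1000, 7 genes) and 28 (24.1 per 1000, 6 genes) followed. The lowest values were 2.00 on chromosome 19, with ASIC2 and CA10, 2.22 on chromosome 18 and 3.34 on chromosome 25, with 2 named genes each. With so few genes per chromosome, a single gene moves these rates visibly. Very long genes covered 12.4% of the length of chromosome 28 up to its last gene, and 1.38% of chromosome 8.

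Per base of chromosome the spread was more even than per gene. The 10 chromosomes with the fewest named genes per Mb (3.29 to 4.66) held 15.0 named very long genes per 1000 named genes, the 10 between held 8.38 and the 10 with the most (7.46 to 15.8 per Mb) held 5.89. Because the classes were sorted by named genes per Mb, the fall per named gene follows in part from the sorting. Per 100 Mb the same classes held 6.48, 5.11 and 5.92 very long genes. Single chromosomes were less even, from 1.77 per 100 Mb on chromosome 8 to 13.4 on chromosome 4. X carried 7 of the 154 (4.55%), against 3.35% of the other named genes, but 3 of those 7 have no symbol, and among named very long genes the share was 2.70% (4 of 148), so the direction depends on whether genes without a symbol are counted.

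**Figure D5:**
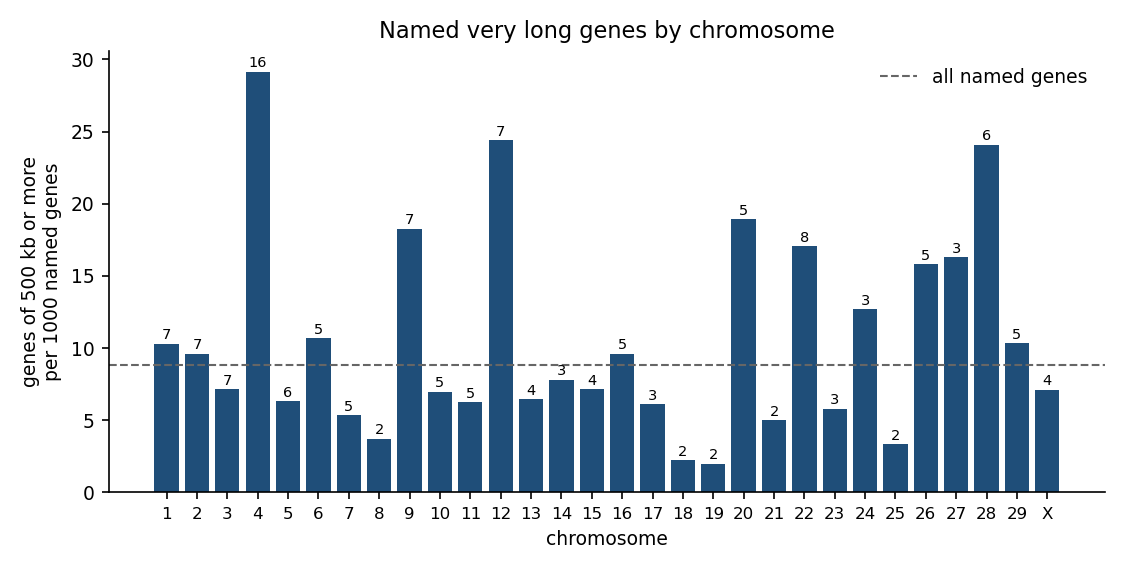
Named genes of 500 kb or more per 1000 named protein-coding genes on each chromosome, with their number above the bar and the value over all named genes (8.81) as a dashed line. Chromosome 4 is highest with 29.1 (16 genes) and chromosome 19 lowest with 2.00 (2 genes).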

How the data were processed

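The labels describe 4 single-cell 3′ RNA libraries of reindeer blood cells. The submitters' processing notes list STAR, Seurat and Cell Ranger 3 without giving their roles. The only file used was the deposited gene annotation, 1020224 feature lines which give each feature's first and last base on the cattle assembly ARS-UCD1.2 per the file headers. These positions, deposited by the authors, belong to no sample, and no sequence was read. Per gene, the representative transcript was that with the longest coding sequence (ties by exon bases, then by identifier); exons and introns were counted from it. Coding bases were merged over all transcripts, a UTR was counted if any transcript had at least 1 base, and neighbours were genes of any kind on either strand that do not overlap. Largest introns were set against the span of the gene line.

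Members, lists and measures were chosen with earlier results of these data known, and the symbols were matched exactly against 39 hand-written lists (35 families, 4 others). Named are the 12 longest genes, the 3 highest and lowest by each measure, the 5 genes on either side of the threshold, very long genes of families with 3 or more of them, and those of the blood cell list; a few of these are not reported here, and other genes are marked or were named as examples after their values were seen. No test was run. On a simulated annotation, span, exons, introns, coding bases, UTRs and inner genes came out exactly for 1000 of 1000 genes, and gaps for 999 of 999. Python 3.11.15, SciPy 1.17.1 and matplotlib 3.10.9 were used.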

Additional observations from a re-analysis of the deposited data

How the results depend on the processing

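Of 54 alternatives, 40 left a value within 1.5 times (or, for shares, within the 95% exact interval of the share in very long genes). That interval treats genes as independent draws, which they are not, and served only as a yardstick for change. The ratio of median exon number, 2.56, became 1.28 against genes of 100 to 500 kb and 1.62 with a threshold of 1000000 bases. The ratio of median coding share, 0.0628, became 0.302 and 0.0258 under the same changes, and the ratio of median gaps, 10.8, became 3.77 and 20.6, or 6.83 when only genes on the same strand counted as neighbours. The difference in the share with a 3′ UTR, -26.1 percentage points, became -49.0 with the threshold of 1000000 bases, -11.7 against all other protein-coding genes, named or not, and -35.8 when only the representative transcript was read. The difference for X, 1.196 percentage points, turned to -3.35 with the threshold of 1000000 bases and to -0.647 with named genes alone. The number of very long genes was 266 with a threshold of 400000 bases and 13 with one of 1000000. The share of the span in the largest intron stayed within 0.613 to 0.833 times that of the others under all 8 alternatives. Beyond these constructions the causes were not tested. Spans depend on how far the annotated transcripts reach, and a model split in the annotation counts as shorter genes.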

Other observations

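The following genes were singled out after their values were seen. SORCS3, a sorting receptor of neurons, spans 978 kb on the plus strand of chromosome 26 and holds 17 other genes. Of these, 16 lie in its intron 2 of 368 kb, and 10 carry symbols, among them ECHS1, an enzyme of fatty acid oxidation, the metalloprotease gene ADAM8, TUBGCP2, a component of the gamma-tubulin complex, and MTG1, a mitochondrial GTPase. No other named very long gene holds more than 2. SORCS3 has a single transcript with 27 exons and 3666 coding bases. The order of the sequence here was not checked against another assembly, so the span, the intron and the count of inner genes hold for this annotation only. Whether this intron has the same content in reindeer was not examined.

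Of the 6 very long genes without a symbol, 2 consist of many minute coding exons. ENSBTAG00000054713 on chromosome 6 has 52 exons over 702 kb but 702 coding bases, and its internal coding exons have a median of 12 bases (2 to 29). It lies wholly inside CFAP299 on the opposite strand. ENSBTAG00000054384 on chromosome 18 has 26 exons over 567 kb and 435 coding bases, with a median of 13 bases (6 to 44), and its span holds 16 other genes, 13 of them named, including TGFB1, AXL and BCKDHA. Neither model has a start codon, a stop codon or a UTR. In the whole annotation 49 of 10241 protein-coding genes with at least 5 internal coding exons had a median below 30 bases, and 3 of these 49 carried a symbol. Besides the first, 3 more lie inside very long genes, within LHFPL3 (44 exons, 669 coding bases), SLC25A21 (48 exons, 738 coding bases) and TAFA1 (18 exons, 300 coding bases), each on the strand opposite to its host.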
